A study of Mus musculus with 20 samples.

Results

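The BCL2 family of apoptosis regulators was followed in Hepa1-6 cells, an established mouse hepatoma line that derives from C57L mice, through 10 h of TGFβ1. The members are 10 genes, Bcl2l11, Bmf, Bik, Bid, Bad, Bak1, Bcl2, Bcl2l1, Mcl1 and Hrk, and were taken as all probe sets that the platform annotation maps to 1 of these symbols alone. They had 35 of the 45037 probe sets in the table and stood for 10 of the 18193 genes with such a probe set. Cells seeded a day earlier were kept for 4 h without growth factors and then received 1 ng/ml TGFβ1 (treated) or no addition (basal), and RNA was taken at 0, 1, 3, 6 and 10 h from duplicate cultures, which gave 10 groups of 2 arrays. The labels call the treated group at 0 h equivalent to the basal group at 0 h, and the lack of growth factors is shared by all groups. Everything was measured in 1 cell line, on whole cultures, so that fewer cells carrying a transcript and less RNA per cell cannot be told apart. Levels are log2 RMA values, on which 1 unit is a doubling of the signal, and levels of different probe sets are not set against each other.

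BCL2 family proteins control the permeability of the outer mitochondrial membrane, the step that releases cytochrome c and starts the intrinsic pathway of apoptosis. BAK1 is one of the effectors that open the membrane; BCL2, BCL-XL (from Bcl2l1) and MCL1 hold effectors in check; and the BH3-only proteins BIM (from Bcl2l11), BMF, BID, BAD, BIK and HRK either bind the guardians or activate the effectors directly. TGFβ1 is known as an inhibitor of hepatocyte growth that can also bring liver cells into apoptosis, and Bcl2l11 and Bmf have been described as genes that TGFβ raises in hepatocytes and other epithelial cells.

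The treated arrays carried the TGFβ response. The feedback and target genes Klf10, Smad7, Skil and Ccn2 were higher in treated cells at 1, 3, 6 and 10 h, with log2 differences of 3.57, 2.45, 2.27 and 2.64 at 1 h, and all 4 lay between −0.07 and 0.04 at 0 h. Of 10 measured hepatocyte and hepatoma markers, 4 (Alb, Afp, Krt8 and Krt18) had mean levels of 12.01 to 13.41, far above the median probe set at 5.17, and the others, Apoa1, Apoa2, Apob, Apoh, Ttr and Hnf4a, lay between 5.16 and 6.57. Of the stellate and fibroblast markers 4 of 8 lay above that median, led by the matrix gene Dcn at 13.42, with Lrat at 2.73. Of the leukocyte markers 4 of 8 did, led by Cd14 at 7.87, with Ptprc at 3.31, and of the endothelial markers 1 of 6, with Pecam1 at 3.65. The 4 cholangiocyte markers Krt19, Krt7, Epcam and Sox9 were all above it, and 1, 3, 3 and 2 of the 4 were higher in treated cells at 1, 3, 6 and 10 h, where 1.78%, 5.80%, 6.73% and 3.88% of all genes were. Their mean level per array ran from 8.69 to 9.22 over the treated arrays and from 8.51 to 8.85 over the basal arrays, 0 h included. Of the hepatocyte and hepatoma markers, 1, 1, 3 and 2 were lower and 0, 2, 0 and 0 higher at these times, and 0.264%, 7.16%, 6.60% and 3.20% of all genes were lower. Their mean level per array ran from 8.61 to 8.70 over the treated arrays and from 8.58 to 8.81 over the basal arrays, 0 h included. The stellate list had 1 higher marker at 3, 6 and 10 h, the leukocyte list 1 at 1, 3 and 6 h, the endothelial list 0. The part of these markers in the results below was not tested.

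Bcl2l11 and Bmf responded within 1 h, and more members followed at 3 h. A difference was called where limma's p-value, adjusted by the Benjamini-Hochberg method over all 45037 probe sets, was below 0.05. At 0 h, 0 of the 35 member probe sets were called and 0 had an unadjusted p below 0.05; over all probe sets 0% were called and 1912 had such a p. At 1 h, 6 member probe sets were higher and 0 lower in treated cells, where 1.30% of all probe sets were called higher and 0.169% lower. At 3 h, 8 were higher and 7 lower, with 4.49% and 4.54% of all probe sets. At 6 h, 8 were higher and 0 lower, with 4.84% and 4.12% of all probe sets, and at 10 h 5 were higher and 0 lower, with 2.65% and 1.92%. All 6 higher calls at 1 h came from Bcl2l11 and Bmf, so these counts weigh genes by how many probe sets they have.

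Counted by gene, with each gene read by its brightest probe set, Bcl2l11 and Bmf were the 2 higher genes at 1 h. At 3 h Bcl2l11, Bmf and Bcl2 were higher while Bid and Bcl2l1 were lower. At 6 h Bcl2l11, Bmf, Bcl2 and Mcl1 were higher, and at 10 h Bcl2l11 and Bmf again. With a gene's probe sets averaged, Mcl1 was instead called lower at 3 h and not called at 6 h, and Bcl2l1 was not called at 3 h. Bik, Bad, Bak1 and Hrk had no call at any single time. Over all genes read by their brightest probe set, 1.78% were higher and 0.264% lower at 1 h, and 5.80% and 7.16% at 3 h. At 6 h 6.73% were higher and 6.60% lower, and at 10 h 3.88% and 3.20%. The median member probe set differed by 0.08, 0.08, 0.12 and 0.14 at these times, and the median of all probe sets by −0.01, −0.01, −0.02 and 0.00. By gene, the median member differed by 0.052, 0.065, 0.032 and 0.156, and the median of all genes by −0.013, −0.02, −0.026 and −0.003.

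**Figure D1:**
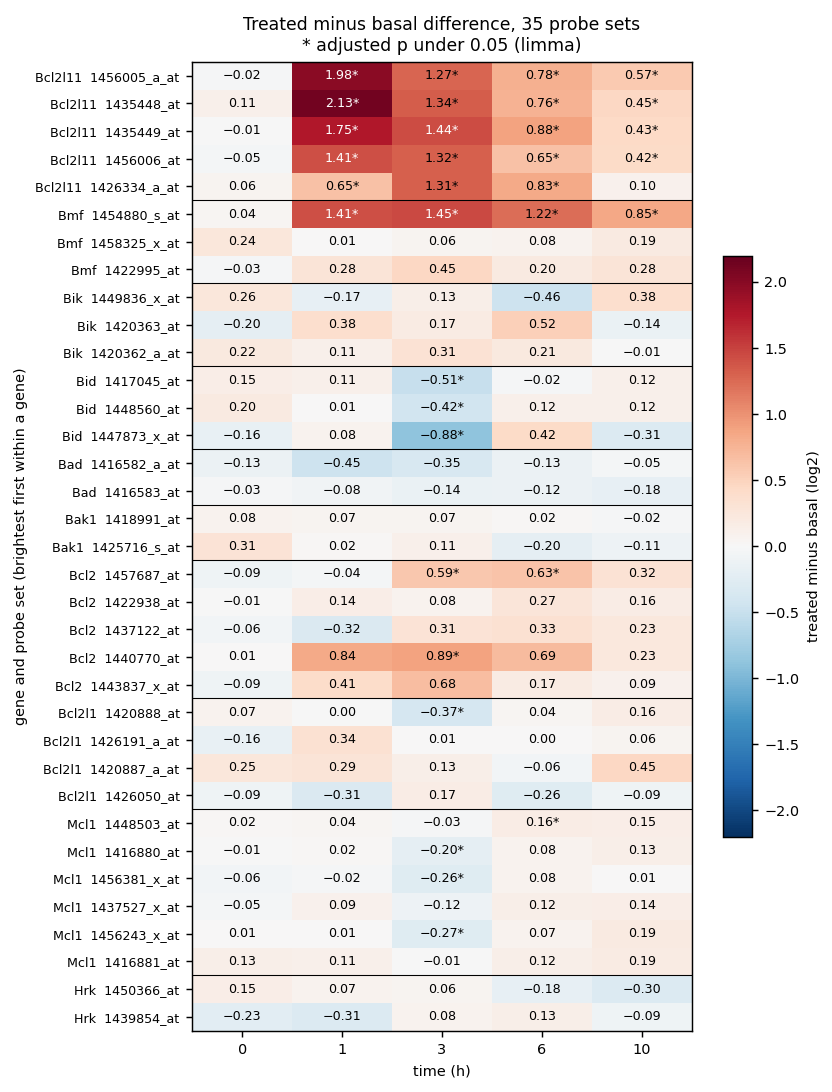
Treated minus basal difference (log2) of the 35 member probe sets at 0, 1, 3, 6 and 10 h, with an asterisk where the adjusted p was below 0.05. The 5 Bcl2l11 probe sets and 1 Bmf probe set form the block of higher values, and the 3 Bid probe sets are called lower at 3 h and at no other time.

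Promoters of the 2 genes that responded first are shown because both genes moved together within 1 h of the cytokine. Each gene has more than 1 start, and the printed one is the only one with a match to the motifs searched. The letters below are the 250 bases before a transcription start in RefSeq, build GRCm38.p6, written 5′ to 3′ on the gene's own strand. The stretch of Bcl2l11 lies at chr2:128125788-128126037 on the plus strand and that of Bmf at chr2:118544588-118544837 on the minus strand. Capitals mark GTAAACA, the sequence FOXO factors bind, in Bcl2l11, and in Bmf CAGACA read on the other strand, the core of the CAGA box that SMAD3 and SMAD4 bind.
Bcl2l11: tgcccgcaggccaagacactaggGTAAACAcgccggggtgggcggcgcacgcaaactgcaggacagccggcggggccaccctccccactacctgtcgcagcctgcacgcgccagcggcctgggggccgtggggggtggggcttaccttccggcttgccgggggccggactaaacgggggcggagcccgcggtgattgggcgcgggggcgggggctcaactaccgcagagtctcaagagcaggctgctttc
Bmf: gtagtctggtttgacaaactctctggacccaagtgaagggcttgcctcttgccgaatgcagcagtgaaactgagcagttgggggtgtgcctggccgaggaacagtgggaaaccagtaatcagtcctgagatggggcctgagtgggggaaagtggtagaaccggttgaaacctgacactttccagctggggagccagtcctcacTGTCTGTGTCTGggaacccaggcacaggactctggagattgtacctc
The GTAAACA of Bcl2l11 covers the bases 227 to 221 upstream of the start, and both copies in Bmf stand side by side, at 47 to 42 and 41 to 36 upstream.

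Starts of 9 of the 10 members were matched by symbol, 15 in all, and searched on both strands for 5 motifs. GTAAACA was found at 1 of the 15 starts, and 3.17% of the 32851 mouse promoters of the same length hold it. CAGACA was found at 2 of the 15, those of Bmf and Bak1 (225 to 220 upstream of the Bak1 start), and 17.1% of all promoters hold it. The SMAD palindrome GTCTAGAC (0.167% of all promoters), which shares the letters AGAC with CAGACA, was found at 0 of the 15. TGANTCA, bound by AP-1 (6.75%), and the cAMP response element TGACGTCA (1.55%) were likewise at 0 of the 15. The other Bcl2l11 start and both other Bmf starts in the table held none of the 5. These are matches of letters in a short window, and nothing on binding was measured.

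Bcl2l11 encodes BIM, a BH3-only protein that binds all of the guardians and can activate effectors directly. Its difference at 1 h was the largest among the members. Its brightest probe set, 1456005_a_at, read 9.36 and 9.50 in treated cells at 0 h, 11.28 and 11.12 at 1 h, 10.62 and 10.61 at 3 h, 10.16 and 10.35 at 6 h, and 10.32 and 10.22 at 10 h. The basal arrays read 9.45 and 9.44, 9.24 and 9.20, 9.50 and 9.18, 9.52 and 9.43, and 9.75 and 9.65 at the same times. From 1 h on, both treated arrays lay above both basal arrays at every time, and the treated arrays were highest at 1 h. The treated minus basal difference was 1.98 ± 0.09 at 1 h (SE, a 3.94-fold higher level, adjusted p = 3.74e-12 by limma) and 1.27 ± 0.09 at 3 h (2.42-fold, adjusted p = 1.92e-09). It was 0.78 ± 0.09 at 6 h (1.72-fold, adjusted p = 2.23e-06) and 0.57 ± 0.09 at 10 h (1.49-fold, adjusted p = 2.71e-04). These 4 calls held under every alternative run.

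The rise of Bcl2l11 was early and then shrank. Between 1 and 3 h the difference of 1456005_a_at fell by 0.71 (adjusted p = 0.00138), and between 1 and 10 h by 1.41 (adjusted p = 4.10e-07). With all 5 probe sets averaged, the change between 1 and 3 h was −0.25 and not called (adjusted p = 0.0930). Against their own 0 h level, treated cells were 1.77 ± 0.09 higher at 1 h and still 0.84 ± 0.09 higher at 10 h (SE; 0.50 and still called with the 5 probe sets averaged). In basal cells the same probe set lay between −0.23 and 0.25 of its 0 h level with no call. The value of 0.25 at 10 h was just short of a call (limma adjusted p = 0.0517) and was called under some alternatives. Averaged over the 5 probe sets, the basal value at 3 h was −0.24 and called (adjusted p = 0.019).

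The 5 probe sets of Bcl2l11 agreed on the direction but not on the timing. All 5 were higher in treated cells at 1, 3 and 6 h, by 0.65 to 2.13 at 1 h, 1.27 to 1.44 at 3 h and 0.65 to 0.88 at 6 h. Probe set 1435448_at followed the brightest one with differences of 2.13, 1.34, 0.76 and 0.45 at 1, 3, 6 and 10 h. Probe set 1426334_a_at had another course. It read 6.67 and 6.76 in treated cells at 0 h, 7.01 and 7.22 at 1 h, 7.76 and 7.50 at 3 h, 7.23 and 7.13 at 6 h, and 6.64 and 6.69 at 10 h. The basal arrays read 6.70 and 6.62, 6.51 and 6.43, 6.34 and 6.30, 6.44 and 6.25, and 6.61 and 6.53 at these times. Its treated arrays were thus highest at 3 h and back near the 0 h level at 10 h. Its difference was 0.65 ± 0.11 at 1 h, 1.31 ± 0.11 at 3 h, 0.83 ± 0.11 at 6 h and 0.10 ± 0.11 at 10 h (SE), the last with no call (adjusted p = 0.795, 95% interval −0.12 to 0.32).

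Between 1 and 3 h the difference of 1426334_a_at rose by 0.66 (adjusted p = 0.0142), while that of 1435448_at fell by 0.79 (adjusted p = 6.87e-06). The rise between these times was not called without replicate 1 of the treated arrays at 1 or 3 h, basal replicate 1 at 1 h or basal replicate 2 at 3 h (adjusted p of 0.0540 and above). Bcl2l11 is spliced into several BIM isoforms, and which transcripts each probe set reads was not analysed here. A test of one probe set against another was not run. At 10 h, 4 of the 5 were higher, by 0.42 to 0.57. The call of 1456006_at at 10 h (0.42, adjusted p = 0.0341) was lost without any 1 of the 4 arrays, at adjusted p between 0.0670 and 0.316.

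**Figure D2:**
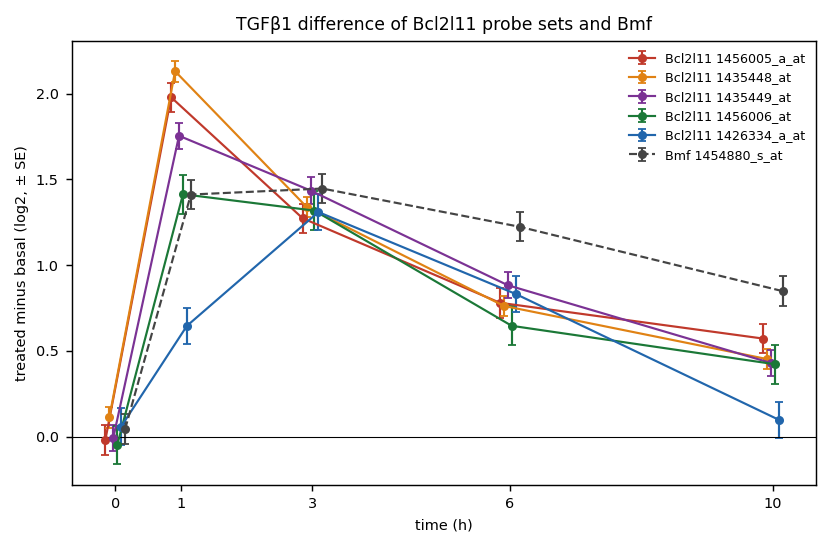
Treated minus basal difference (log2, points with SE) of the 5 Bcl2l11 probe sets (solid lines) and of Bmf 1454880_s_at (dashed line) against time in hours. Bcl2l11 1435448_at is highest at 1 h with 2.13, 1426334_a_at at 3 h with 1.31, and Bmf stays between 1.22 and 1.45 from 1 to 6 h.

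Bmf encodes a BH3-only protein tied to the actin cytoskeleton through dynein light chains. In its brightest probe set it was higher in treated cells at 1, 3, 6 and 10 h. Its probe set 1454880_s_at read 9.08 and 9.28 in treated cells at 0 h, 10.08 and 10.03 at 1 h, 9.71 and 9.79 at 3 h, 9.75 and 9.57 at 6 h, and 9.62 and 9.59 at 10 h. Basal cells read 9.22 and 9.05, 8.63 and 8.66, 8.32 and 8.27, 8.34 and 8.53, and 8.84 and 8.67. The groups were apart at every time from 1 h on, with the treated arrays above their 0 h level and the basal arrays below theirs. The differences were 1.41 ± 0.09 at 1 h (2.66-fold, adjusted p = 8.27e-10), 1.45 ± 0.09 at 3 h (2.73-fold, adjusted p = 2.76e-10) and 1.22 ± 0.09 at 6 h (2.34-fold, adjusted p = 3.95e-09). At 10 h the difference was 0.85 ± 0.09 (1.80-fold, adjusted p = 1.86e-06).

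In probe set 1454880_s_at both arms moved away from 0 h. Treated cells were 0.88 higher than at 0 h after 1 h (adjusted p = 1.20e-06) and 0.57, 0.48 and 0.42 higher at 3, 6 and 10 h. With all 3 Bmf probe sets averaged the treated values were 0.36 at 1 h, still called, and 0.20, 0.14 and 0.17 at 3, 6 and 10 h, not called. Basal cells were 0.84 lower than at 0 h after 3 h (adjusted p = 5.21e-06) and 0.70 lower after 6 h (adjusted p = 1.09e-05), and their value of −0.49 after 1 h was just short of a call (adjusted p = 0.0515). After 10 h basal cells were 0.38 lower (adjusted p = 0.00295), a call that was lost without basal replicate 1 at 0 h (adjusted p = 0.0697) or basal replicate 2 at 10 h (0.0671). Averaged over the 3 probe sets, the basal values were −0.37 and −0.28 at 3 and 6 h, both still called, and −0.18 at 10 h, not called (adjusted p = 0.129). Between 1 and 3 h the treated minus basal difference of Bmf changed by 0.04 ± 0.12 with no call (95% interval −0.22 to 0.29). Between 1 and 10 h it fell by 0.56 (adjusted p = 0.0146), against −0.13 and no call with the probe sets averaged (adjusted p = 0.773). That fall was not called without replicate 1 of the treated or basal arrays at 1 h or 10 h or treated replicate 2 at 10 h, at adjusted p between 0.0528 and 0.110.

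The other Bmf probe sets were near the median of the table, with means of 5.42 (1458325_x_at) and 5.25 (1422995_at), and were not called at any single time. The mean difference over 1, 3, 6 and 10 h of 1422995_at was 0.30 ± 0.07 (SE, adjusted p = 0.00506). Where all 3 Bmf probe sets were averaged, the difference was still called at each time and lay between 0.44 and 0.65. The suffix _s_at marks probe sets whose probes match more than one transcript in the manufacturer's naming, and the annotation names Bmf alone for this one.

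**Figure D3:**
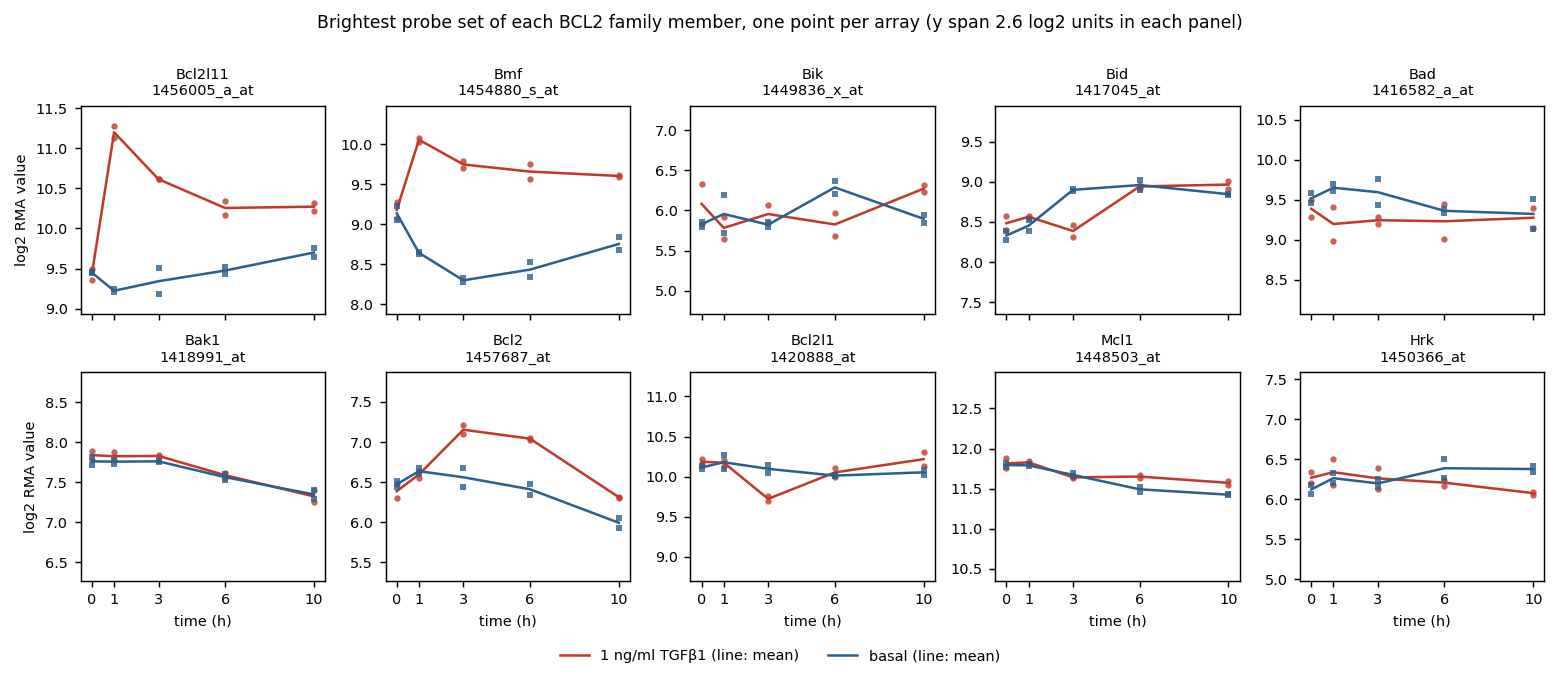
Log2 RMA value of the brightest probe set of each member against time in hours, 1 point per array, with lines through the group means (treated in red, basal in blue) and the same span on every axis. Bcl2l11 and Bmf separate from 1 h on, Bcl2 from 3 h on, and Bid and Bcl2l1 at 3 h in the other direction.

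Bid encodes a BH3-only protein that caspase 8 cleaves and that links death receptors to mitochondria. It was called lower in treated cells at 3 h and at no other time. Probe set 1417045_at read 8.39 and 8.57 in treated cells at 0 h, 8.58 and 8.55 at 1 h, 8.46 and 8.31 at 3 h, 8.96 and 8.93 at 6 h, and 8.92 and 9.02 at 10 h. Basal values were 8.39 and 8.27, 8.38 and 8.52, 8.91 and 8.89, 9.02 and 8.90, and 8.84 and 8.85. At 3 h both treated arrays lay below both basal arrays, and at 6 h the groups overlapped. The difference at 3 h was −0.51 ± 0.08 (SE, adjusted p = 9.89e-05), and at 1, 6 and 10 h it was 0.11, −0.02 and 0.12 with no call.

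All 3 Bid probe sets were lower at 3 h, with −0.42 ± 0.11 for 1448560_at (adjusted p = 0.0217) and −0.88 ± 0.14 for 1447873_x_at (adjusted p = 1.62e-04). At 6 and 10 h 1447873_x_at was at 0.42 and −0.31 with no call (adjusted p = 0.0687 and 0.306). The call of 1448560_at was lost without either treated array (adjusted p = 0.0765 and 0.124) or basal replicate 2 (0.256). The difference of 1417045_at fell by 0.63 between 1 and 3 h (adjusted p = 0.00156) and rose by 0.50 between 3 and 6 h (adjusted p = 0.0202). The second call was lost without treated replicate 2 or either basal array at 3 h, or without either treated array or basal replicate 2 at 6 h, at adjusted p between 0.0598 and 0.101. Basal cells rose above their own 0 h level by 0.57, 0.63 and 0.52 at 3, 6 and 10 h. With the 3 Bid probe sets averaged, the basal value at 6 h was 0.36 and the change of the difference between 3 and 6 h 0.78, both called. In 1417045_at treated cells were 0.46 and 0.48 above their 0 h level at 6 and 10 h, and their value at 3 h was −0.10 with no call. Averaged over the 3 probe sets, the treated value at 3 h was −0.21 and called (limma adjusted p = 0.0326).

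Bad encodes a BH3-only protein that survival kinases hold inactive by phosphorylation. Its brightest probe set, 1416582_a_at, read 8.98 to 9.49 over the 10 treated arrays and 9.14 to 9.76 over the 10 basal arrays. These ranges pool all times. At 1 and 3 h both treated arrays of 1416582_a_at lay below both basal arrays, and at 0, 6 and 10 h the groups overlapped. Both treated arrays of 1416583_at lay below both basal arrays at 3, 6 and 10 h. Neither of the 2 Bad probe sets was called at a single time. The mean difference over 1, 3, 6 and 10 h was −0.25 ± 0.07 for 1416582_a_at (SE, adjusted p = 0.0304) and −0.13 ± 0.04 for 1416583_at (adjusted p = 0.0214). For that mean, 11 member probe sets were called higher and 2 lower, where 8.12% and 6.52% of all probe sets were. The call of 1416582_a_at was lost without replicate 1 of the treated arrays at 1, 3 or 10 h or of the basal arrays at 1 or 6 h, and without replicate 2 of the treated arrays at 6 h or of the basal arrays at 3 or 10 h, at adjusted p between 0.0570 and 0.0994. That of 1416583_at was lost without replicate 1 of the treated arrays at 1, 3 or 10 h or of the basal arrays at 1, 3 or 10 h, or basal replicate 2 at 6 h, at adjusted p between 0.0507 and 0.0731.

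Bik and Hrk, the remaining BH3-only genes, had no call between treated and basal cells. The brightest Bik probe set, 1449836_x_at, ran from 5.64 to 6.33 over the treated arrays and from 5.72 to 6.37 over the basal arrays, and 2 of the 3 Bik probe sets lay under the median of the table. Its largest difference was −0.46 ± 0.17 at 6 h (SE, adjusted p = 0.106, 95% interval −0.81 to −0.11). Hrk, known mainly from neurons, ran from 6.06 to 6.50 over the treated arrays and from 6.06 to 6.51 over the basal arrays in 1450366_at. The largest difference of 1450366_at was −0.30 ± 0.13 at 10 h (SE, adjusted p = 0.261, 95% interval −0.57 to −0.04), and that of 1439854_at was −0.31 ± 0.14 at 1 h (SE, adjusted p = 0.551). Missing the threshold does not show that these genes stayed level.

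Bak1, the one effector among the members, showed no called difference between treated and basal cells. Probe set 1418991_at read 7.78 and 7.89 in treated cells at 0 h, 7.77 and 7.88 at 1 h, 7.82 and 7.84 at 3 h, 7.56 and 7.62 at 6 h, and 7.25 and 7.40 at 10 h. In basal cells it read 7.81 and 7.71, 7.73 and 7.78, 7.77 and 7.75, 7.60 and 7.53, and 7.29 and 7.40. Both arms were lowest at 10 h, and they overlapped at each time except 3 h, where both treated arrays lay above both basal arrays by a small margin (difference 0.07 ± 0.08, SE, not called). The mean difference was 0.03 ± 0.04 (SE, 95% interval −0.05 to 0.12). By 10 h treated cells were 0.51 below their 0 h level (adjusted p = 7.69e-05) and basal cells 0.41 below theirs (adjusted p = 8.41e-04). With both Bak1 probe sets averaged, the fall of the basal cells was −0.22 and not called (adjusted p = 0.228).

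Bcl2 encodes the guardian that gave the family its name, and it was higher in treated cells at 3 and 6 h. Probe set 1457687_at read 6.47 and 6.30 in treated cells at 0 h, 6.55 and 6.64 at 1 h, 7.21 and 7.10 at 3 h, 7.05 and 7.03 at 6 h, and 6.31 and 6.32 at 10 h. In basal cells it read 6.51 and 6.44, 6.68 and 6.59, 6.68 and 6.44, 6.34 and 6.48, and 5.93 and 6.05. The arms overlapped at 1 h and were apart at 3, 6 and 10 h. The difference was −0.04 ± 0.10 at 1 h, 0.59 ± 0.10 at 3 h (1.51-fold, adjusted p = 5.46e-04), 0.63 ± 0.10 at 6 h (1.55-fold, adjusted p = 3.02e-04) and 0.32 ± 0.10 at 10 h (SE, adjusted p = 0.102).

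The change of Bcl2 between 1 and 3 h was 0.63 (adjusted p = 0.0175), and 0.31 with no call when its 5 probe sets were averaged (adjusted p = 0.264). The same average gave a difference of 0.42 at 6 h, still called. The change between 1 and 3 h was also not called without replicate 1 of the treated arrays at 1 or 3 h, basal replicate 1 at 1 h or basal replicate 2 at 3 h, at adjusted p between 0.0661 and 0.122. Treated cells were 0.77 above their 0 h level at 3 h and 0.66 above it at 6 h (0.51, still called, and 0.20, not called, with all 5 probe sets averaged), and basal cells were 0.48 below theirs at 10 h (adjusted p = 0.00228). Of the other 4 Bcl2 probe sets, 1422938_at, with a mean of 6.08, was not called between treated and basal cells at any single time. At 3 h it read 6.18 and 6.25 in treated and 6.20 and 6.07 in basal cells. The remaining 3 lay under the median of the table. One of these, 1440770_at, with a mean of 3.92, was 0.89 ± 0.22 higher at 3 h (SE, adjusted p = 0.0107), a call lost without treated replicate 2 (adjusted p = 0.143) or basal replicate 1 (0.170). With the replicate number as a block it was also called at 1 and 6 h (0.84 and 0.69, adjusted p = 0.0198 and 0.0219), where the fit without it gave 0.0689 and 0.0550.

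Bcl2l1 encodes BCL-XL, the guardian on which hepatocytes are known to depend together with MCL1. It was lower in treated cells at 3 h alone. Probe set 1420888_at read 10.15 and 10.22 in treated cells at 0 h, 10.14 and 10.21 at 1 h, 9.75 and 9.69 at 3 h, 10.11 and 9.99 at 6 h, and 10.31 and 10.13 at 10 h. In basal cells it read 10.09 and 10.13, 10.09 and 10.27, 10.15 and 10.04, 10.01 and 10.02, and 10.02 and 10.09. Only the treated arrays at 3 h stood below the rest. The difference there was −0.37 ± 0.07 (SE, adjusted p = 8.52e-04), and treated cells were 0.46 below their own 0 h level (adjusted p = 8.38e-05). The other 3 probe sets of the gene had means between 3.51 and 6.14, and at no time was any of them called between treated and basal cells. One of them, 1426191_a_at, was 0.57 above its own 0 h level in treated cells at 1 h (adjusted p = 0.0473), a call lost without treated replicate 1 at 0 h (0.36, adjusted p = 0.505) or either treated array at 1 h (adjusted p = 0.131 and 0.275). With all 4 averaged, the value at 3 h was −0.02 (adjusted p = 0.961), so the lower level rests on the 1 bright probe set.

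Mcl1 encodes a short-lived guardian, and all 6 of its probe sets were bright, with means between 10.00 and 11.67. At 3 h, 3 of the 6 were lower in treated cells: 1416880_at by −0.20 ± 0.05 (SE, adjusted p = 0.00886), 1456381_x_at by −0.26 ± 0.05 (adjusted p = 0.00239) and 1456243_x_at by −0.27 ± 0.07 (adjusted p = 0.0220). Probe set 1456381_x_at read 10.47 and 10.44 in treated cells and 10.71 and 10.72 in basal cells at 3 h. At 0 h it read 10.92 and 10.95 in treated and 10.97 and 11.00 in basal cells. Its call held under every alternative run. The call of 1416880_at was lost without treated replicate 1 (adjusted p = 0.0603) or basal replicate 1 (0.162), and that of 1456243_x_at without any 1 of the 4 arrays (adjusted p between 0.0607 and 0.167). Treated cells at 3 h were 0.40, 0.48 and 0.48 below their own 0 h level in these 3 probe sets.

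The brightest Mcl1 probe set, 1448503_at, had another course. It read 11.65 and 11.63 in treated cells and 11.69 and 11.65 in basal cells at 3 h, and 11.67 and 11.63 in treated against 11.52 and 11.46 in basal cells at 6 h. Its difference was −0.03 ± 0.04 at 3 h and 0.16 ± 0.04 at 6 h (SE, adjusted p = 0.0265). The call at 6 h was lost without either treated array (adjusted p = 0.196 and 0.0672) or basal replicate 2 (0.242). Basal cells lay 0.30 below the 0 h level at 6 h (adjusted p = 9.18e-05) and 0.37 below it at 10 h (adjusted p = 4.58e-06), and the average of the 6 probe sets was −0.20 at 10 h, still called. With all 6 averaged, the treated minus basal difference was −0.15 at 3 h, called (limma adjusted p = 0.0473). At 6 h this average was 0.11 and not called (adjusted p = 0.180). Every called Mcl1 difference between treated and basal cells lay between −0.27 and 0.16, and probe sets ending in _x_at can pick up related transcripts in the manufacturer's naming.

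**Figure D4:**
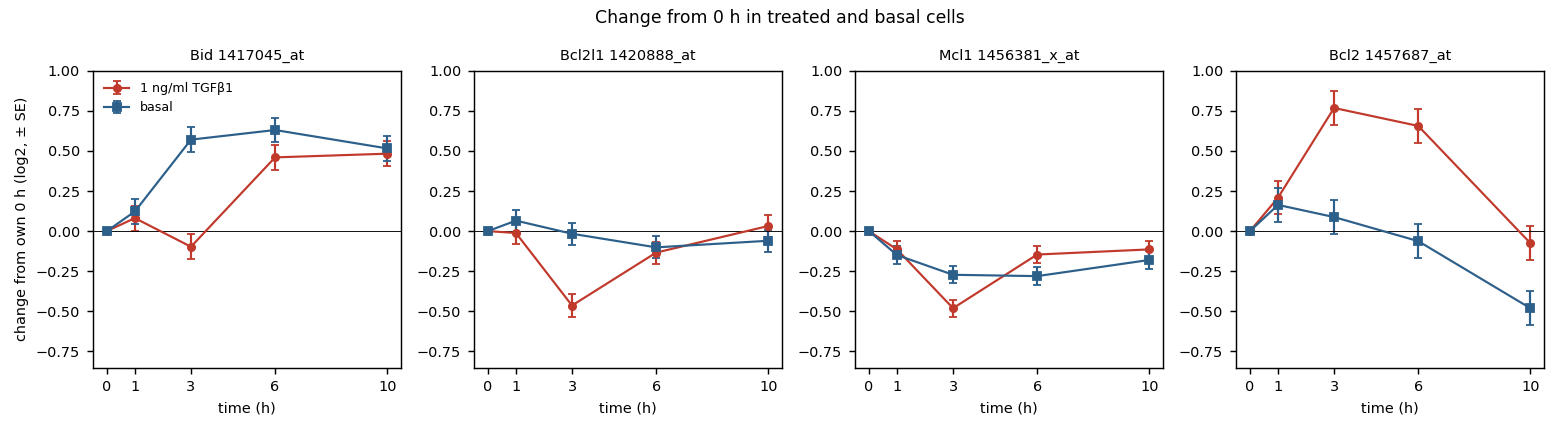
Change from the arm's own 0 h level (log2, points with SE) of Bid 1417045_at, Bcl2l1 1420888_at, Mcl1 1456381_x_at and Bcl2 1457687_at against time in hours, treated in red and basal in blue. Treated cells at 3 h are at −0.10, −0.46, −0.48 and 0.77, and basal cells at 0.57, −0.02, −0.27 and 0.09.

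The response changed with time in several members. Between 1 and 3 h the treated minus basal difference went up in 2 member probe sets and down in 5, where 1.21% and 1.89% of all probe sets did. Between 3 and 6 h it went up in 5 and down in 4, with 1.11% and 0.762% of all probe sets. The 5 that went up were 2 of Bid, 2 of Mcl1 and 1 of Bcl2l1, which were all lower in treated cells at 3 h, and the 4 that went down were all of Bcl2l11. Between 6 and 10 h, 0 went up and 2 down (0.433% and 0.593% of all probe sets), and between 1 and 10 h 0 went up and 5 down (0.648% and 1.16%). Those 5 were 4 probe sets of Bcl2l11, by −0.99 to −1.68, and 1454880_s_at of Bmf. The sum of 23 calls was 14 without treated replicate 1 at 3 h, 15 without treated replicate 2 at 3 h and 15 without treated replicate 1 at 6 h.

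Part of the family also drifted in basal cells. Against basal cells at 0 h, 0 member probe sets were called at 1 h (0.0133% of all probe sets were higher and 0.00888% lower, and 5 members had an unadjusted p below 0.05). At 3 h, 1 was higher and 4 lower (1.93% and 1.49% of all probe sets). At 6 h, 3 were higher and 6 lower (5.52% and 7.45%), and at 10 h, 4 were higher and 8 lower (7.50% and 9.17%). The higher ones were probe sets of Bid and, at 6 and 10 h, 1435448_at of Bcl2l11, which was 0.42 above 0 h at 10 h (adjusted p = 3.46e-05). Another Bcl2l11 probe set, 1435449_at, was called lower at 3 h (−0.33, limma adjusted p = 0.0191) and 6 h (−0.27, adjusted p = 0.0202). Both of its calls and the 6 h call of 1435448_at were lost under some alternatives. The lower ones at 10 h came from Mcl1 (4), Bcl2 (2), Bmf (1) and Bak1 (1). The sum of 26 calls in basal cells was 16 without basal replicate 2 at 0 h.

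In treated cells the course from 0 h held 6 higher and 0 lower calls at 1 h (1.47% and 0.393% of all probe sets) and 7 and 6 at 3 h (4.79% and 4.62%). It held 10 and 2 at 6 h (6.49% and 8.02%) and 6 and 3 at 10 h (8.77% and 9.23%). The 6 lower ones at 3 h were 5 of the 6 Mcl1 probe sets and 1420888_at of Bcl2l1. All arms share the change of medium, and each difference from 0 h within an arm shares its 2 arrays at 0 h with the others.

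The genes whose course over the 20 arrays was most like that of a responding member were read off by Pearson correlation among 9096 genes with a spread over arrays at or above the median, as a description. All points share the same arrays and the same 10 groups of the time course, and no test was made. For Bcl2l11 these were Irf2bpl and Jun (both 0.967), Junb (0.957), Ier5l (0.954) and Pim1 (0.952). Jun and Junb encode AP-1 subunits, and Pim1 encodes a kinase that promotes survival. For Bmf they were Klf7 (0.942), Midn (0.925), Sgk1 (0.924), Rest (0.914) and Irf2bpl (0.907). For Bcl2 they were Daam1 (0.932), Ror1 (0.925), Arhgef26 (0.924), Ifi47 (0.919) and Nup37 (0.912).

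Other genes of the death machinery were read from lists chosen with earlier results known, each gene by its brightest probe set. Their counts stand beside the shares of all genes given above, which were 1.78% higher and 0.264% lower at 1 h, 5.80% and 7.16% at 3 h, 6.73% and 6.60% at 6 h, and 3.88% and 3.20% at 10 h. Of 13 further BCL2 family genes, 0 were called at 1 h, 4 were lower at 3 h, 1 was higher and 3 lower at 6 h, and 1 was lower at 10 h. A single gene of such a list is close to those shares. The BH3-only genes Pmaip1 (NOXA) and Bbc3 (PUMA), both p53 targets, were lower at 3 h by −0.75 ± 0.07 (adjusted p = 3.62e-07) and −0.87 ± 0.10 (SE, adjusted p = 2.89e-06), opposite in sign to Bcl2l11 and Bmf. Pmaip1 averaged 9.38 in treated and 10.12 in basal cells at 3 h, and Bbc3 7.56 in treated and 8.43 in basal cells. The guardian gene Bcl2l2 was lower by −0.29 at 3 h (adjusted p = 0.00455), a call lost without treated replicate 1 (adjusted p = 0.0569) or basal replicate 1 (0.0869), and at −0.14 with its probe sets averaged (0.356). Bnip3, a mitophagy receptor gene, was lower by −0.59 at 6 h and −0.47 at 10 h, the second not called without treated replicate 1 (adjusted p = 0.0796). The median of the list at 3 h was −0.10, beside −0.02 over all genes.

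Of 15 caspase and apoptosome genes, 0 were called at 1 h and 6 were lower and 0 higher at 3 h, where 7.16% of all genes were lower and 5.80% higher. Among these 6 were Casp4, an inflammatory caspase (−0.64 ± 0.08, adjusted p = 7.97e-06), Dffb, the nuclease that cuts DNA in apoptosis (−0.79 ± 0.12), and Apaf1, the scaffold of the apoptosome (−0.46 ± 0.07, SE). Casp4 stayed lower at 6 and 10 h (−0.96 and −0.52). Casp6, an executioner caspase, was higher at 6 h (0.39) and 10 h (0.35). With all its probe sets averaged, Casp6 was at 0.16 and 0.18 and not called (adjusted p = 0.346 and 0.340), and without treated replicate 2 the call at 10 h was lost (0.0587). The list had 1 higher and 2 lower at 6 h and 2 higher and 2 lower at 10 h, where 6.73% and 6.60% of all genes were higher and lower at 6 h and 3.88% and 3.20% at 10 h.

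Of 13 death receptor, ligand and adaptor genes, 0 were called at 1 h and 3 were lower at 3 h, where 7.16% of all genes were lower. The receptor genes Tnfrsf1a and Fas were lower by −0.71 ± 0.05 (adjusted p = 6.58e-09) and −0.74 ± 0.10 (SE, adjusted p = 3.74e-05). Fas averaged 6.77 in treated and 7.51 in basal cells at 3 h, and it was lower also at 6 h (−0.69) and 10 h (−0.66). Tnfrsf1a was lower also at 6 h (−0.42). The list had 1 higher and 2 lower genes at 6 h, where 6.73% and 6.60% of all genes were. At 10 h it had 0 higher and 1 lower, where 3.88% and 3.20% of all genes were. Of 8 inhibitor of apoptosis and FLIP genes, 0 were higher at any time and 1 each was lower at 3, 6 and 10 h. Birc2 at 3 h (−0.22, adjusted p = 0.0405) was not called without any 1 of the 4 arrays (adjusted p between 0.0631 and 0.290). Birc5 (survivin) was −0.16 at 6 h and −0.20 at 10 h. At 6 h it was not called without treated replicate 2 (adjusted p = 0.354) or basal replicate 1 (0.224), and at 10 h not without any 1 of the 4 arrays (between 0.0638 and 0.127).

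Of 16 genes for turnover and partners of MCL1 and BIM, 2, 5, 2 and 1 were higher at 1, 3, 6 and 10 h and 0 were lower, where 1.78%, 5.80%, 6.73% and 3.88% of all genes were higher. Ier3, whose product binds MCL1, was 0.91 ± 0.06 higher at 1 h (adjusted p = 9.67e-10) and 0.30 higher at 3 h. Bag3, a co-chaperone gene, was 0.62 and 0.97 higher at 1 and 3 h. Fbxw7, which encodes the substrate receptor of a ubiquitin ligase acting on MCL1, was 0.58 ± 0.09 higher at 3 h (SE, adjusted p = 2.18e-04) and 0.53 higher at 6 h. Its value at 10 h was 0.46, with a call that was lost without treated replicate 1 (adjusted p = 0.0537) or basal replicate 2 (0.0895). Usp9x, a deubiquitinase gene for MCL1, was 0.29 higher at 6 h, a call lost without treated replicate 1 (adjusted p = 0.0547) or basal replicate 2 (0.0827).

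Of 17 genes for transcriptional regulators of BH3-only genes, 2 were higher and 0 lower at 1 h, and 2 higher and 4 lower at 3 h, where 5.80% and 7.16% of all genes were. Jun, an AP-1 subunit, was 1.66 ± 0.07 higher at 1 h (3.15-fold, adjusted p = 3.74e-12), with differences of 0.80, 0.68 and 0.42 at 3, 6 and 10 h. Cebpb was 0.76, 0.56 and 0.29 higher at 1, 3 and 6 h. Ddit3 (CHOP), a stress factor known to act on Bcl2l11, was lower by −0.74 at 3 h, −0.58 at 6 h and −0.41 at 10 h. The list had 2 higher and 2 lower genes at 6 h (6.73% and 6.60% of all genes), and 3 and 2 at 10 h (3.88% and 3.20%).

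**Figure D5:**
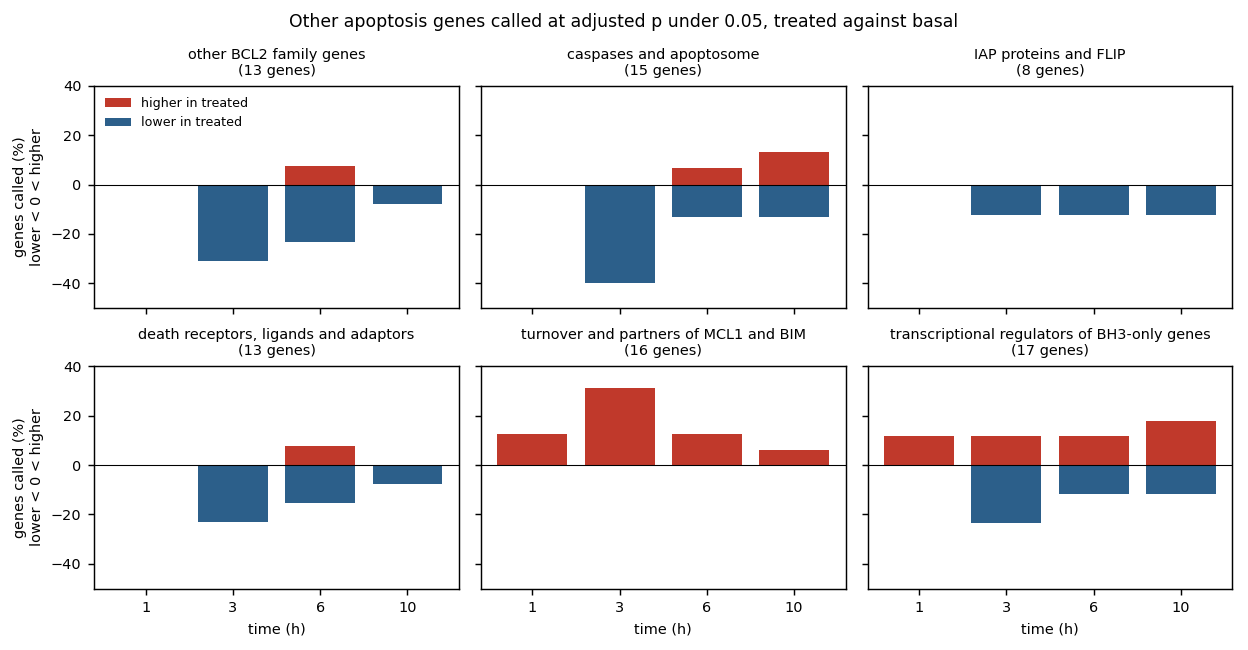
Share of measured genes in 6 lists (%) called higher (red, upward) or lower (blue, downward) in treated than in basal cells at 1, 3, 6 and 10 h. At 3 h, 4 of 13 further BCL2 family genes and 6 of 15 caspase and apoptosome genes are lower, and 5 of 16 genes for turnover and partners of MCL1 and BIM are higher.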

How the data were processed

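The authors deposited log2 expression values, 1 per probe set and Affymetrix array, made with RMA per the submitters' processing notes. RMA corrects background, sets all arrays to the same quantiles and summarises each probe set. For its version, chip description file and genome build, the sources used here give nothing. RMA compresses differences of dim probe sets, and every difference is relative to the other transcripts. Array medians ran from 5.15 to 5.21 and duplicates correlated at 0.9958 to 0.9971. With 2 arrays a group, the median SE of a treated minus basal difference was 0.14, and the number of arrays limits the precision.

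The platform annotation, with symbols updated by Entrez ID through RefSeq (GRCm38.p6), gave 1 gene for 34945 probe sets, several for 932 and none for 9160. Genes outside the family and gene counts use the probe set with the highest mean, and lists count only measured genes. With limma 3.58.1 in R 4.3.3, each of the 10 groups got its own mean over all 20 arrays and 45037 probe sets (eBayes with a variance trend, 10 residual degrees of freedom), and p-values were adjusted by Benjamini-Hochberg over all probe sets within each comparison, at 0.05. The fit was tested on simulated data. Folds are 2 raised to the log2 difference. Named genes were all members, and from each list up to 3 called genes per time, lowest adjusted p first. Of these, Bnip2, Aifm1, Tradd and the later Bbc3 call at 6 h, Casp12 and E2f1 at 10 h and Tnfrsf10b at 3 h lost their call under some alternatives and appear in the counts alone. Some genes named above also lost a call, and those losses are given with them. Members and lists were chosen with earlier results of these data known.

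Same-numbered treated and basal arrays deviated together with correlations of 0.094, 0.087, 0.014, 0.103 and 0.044 at 0, 1, 3, 6 and 10 h, so the replicate numbers were not taken to pair samples. The alternatives were other feature sets, a filter on dim probe sets, further normalization, another variance model, array weights, the compared arrays alone, a replicate block and leaving out each array.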

Additional observations from a re-analysis of the deposited data

Results flagged for a closer look

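The treated minus basal difference of 23 member probe set comparisons differed between 2 times by limma's test of the change itself. Between 1 and 3 h the difference of Bcl2l11 changed by −0.71 in 1456005_a_at and −0.79 in 1435448_at but by 0.66 in 1426334_a_at. Over the same interval Bid changed by −0.63 in 1417045_at and −0.96 in 1447873_x_at, Bcl2l1 by −0.37 in 1420888_at and Bcl2 by 0.63 in 1457687_at. Between 3 and 6 h, Bcl2l11 changed by −0.49, −0.58, −0.55 and −0.67 in 1456005_a_at, 1435448_at, 1435449_at and 1456006_at. Bid came back by 0.50 in 1417045_at and 1.29 in 1447873_x_at, Bcl2l1 by 0.41 in 1420888_at, and Mcl1 by 0.28 in 1416880_at and 0.34 in 1456381_x_at. Between 6 and 10 h, Bcl2l11 changed by −0.45 in 1435449_at and −0.73 in 1426334_a_at. Between 1 and 10 h, Bcl2l11 changed by −1.41, −1.68, −1.32 and −0.99 in 1456005_a_at, 1435448_at, 1435449_at and 1456006_at, and Bmf by −0.56 in 1454880_s_at. Of these 23 changes, 9 were called under every alternative run. The opposite signs of Bcl2l11 probe sets between 1 and 3 h were not tested against each other.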

How the results depend on the processing

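The 47 called differences between treated and basal cells include 13 calls on the mean over 1, 3, 6 and 10 h. That mean draws on the same arrays as the single times. Of these 47, 36 were called under every alternative run, and 0 changed direction. Of 706 alternative values, 643 kept the call and 63 lost it. In the same way 10 of 26 calls in the basal course, 23 of 40 in the treated course and 29 of 45 named values of other genes kept their call in all of them. The 23 calls on changes between times came to 13 with no variance trend and to between 14 and 23 with 1 array left out, lowest without treated replicate 1 at 3 h (14), treated replicate 2 at 3 h (15) or treated replicate 1 at 6 h (15). The 26 calls in the basal course came to 17 with no variance trend and to between 16 and 27 with 1 array left out. Of single changes, that of Bcl2l1 between 3 and 6 h turned to −0.0539 (adjusted p = 0.932) with all its probe sets averaged, and the cause of these changes was not tested. The replicate number was also used as a block, although the numbers were not taken to pair the arrays. With it the calls were 0, 7, 16, 9 and 5 at 0, 1, 3, 6 and 10 h, and 14 for the mean difference. There were 23 for changes between times, 29 and 43 for the basal and treated courses and 64 for the other lists. By brightest probe set they were 2, 5, 4 and 2 genes. No called member difference was lost with the block. Of the 35 member probe sets, 7 had mean levels under the median probe set, 2 of Bik, 3 of Bcl2, 1 of Bak1 and 1 of Bcl2l1; what their signal over background allows was not tested.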
